A study of Drosophila melanogaster with 4 samples.

Results

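Histone lysine methyltransferases are the enzymes that place methyl groups on lysines of the histone proteins, and 10 of their genes in *Drosophila melanogaster* were examined in ovary RNA: *trx*, *trr*, *Set1*, *ash1*, *Set2*, *G9a*, *egg*, *Su(var)3-9*, *E(z)* and *PR-Set7*. They were chosen by symbol and matched to the FlyBase identifiers of the count tables, and all 10 were found among the 17023 genes listed and the 10245 genes tested (*PR-Set7* under its current symbol *Set8*). The flies of the first group carried UAS-Dcr2 and nosGAL4 with an RNAi hairpin against *Nipped-A*, the scaffold protein of the Tip60 and SAGA acetyltransferase complexes. Those of the second group carried UAS-Dcr2 and nosGAL4 with a hairpin against *bam*, a gene without which the daughters of germline stem cells do not differentiate. The nosGAL4 driver is active in germ cells and UAS-Dcr2 strengthens the interference, so the somatic cells of the ovary are not the target of either hairpin. Ovaries were dissected 2 to 3 days after eclosion, and poly(A) RNA was sequenced from 2 libraries per group. No untreated ovaries are part of the comparison, and a difference may come from either knockdown.

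Methylation of histone lysines is read according to the residue. Marks on H3K4 and H3K36 accompany active promoters, enhancers and gene bodies, marks on H3K9 and H3K27 accompany heterochromatin and Polycomb repression, and H4K20 monomethylation is tied to chromosome condensation and the cell cycle. In the fly ovary several of these enzymes are known to act in germ cells: *egg* is needed for early germ cell and follicle cell development, *Set1* for maintenance of germline stem cells, and *E(z)* for Polycomb repression as nurse cells differentiate. None of this is measured by the RNA levels below, which describe transcripts and neither proteins nor marks.

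The libraries held 47825006 and 21193517 counts with the *Nipped-A* RNAi label, against 33844807 and 23866988 with the *bam* RNAi label. *Nipped-A* itself had 430 and 439 CPM (counts-per-million values, scaled with TMM factors) under the *Nipped-A* RNAi label, against 287 and 247 CPM under the *bam* RNAi label. It was thus called higher under its own label (log2 fold change 0.70 ± 0.14, edgeR adjusted p = 0.0287). Whether the hairpin lowered it in germ cells was not tested, since no untreated ovaries were compared and cell type markers differed between groups. With the dependence of fold changes on gene length removed, as described below, *Nipped-A* was not called (0.31, edgeR adjusted p = 0.131). *bam* had 29.0 and 16.9 CPM under the *Nipped-A* RNAi label, against 4.70 and 6.52 CPM under the *bam* RNAi label. *bam* RNA was thus lowest in the libraries that carry its label (log2 fold change of *Nipped-A* RNAi over *bam* RNAi 2.03 ± 0.38; edgeR adjusted p = 0.0254). Directions below are given by library label, since *Nipped-A* RNA was not called lower under its own in either fit. All 8 germ cell markers with counts were detected in every library. Their summed levels were 2194 to 2479 CPM under the *Nipped-A* RNAi label and 1655 to 1732 CPM under the *bam* RNAi label. The single markers went both ways, with 4 called higher under the *Nipped-A* RNAi label and 2 lower. Those called lower were *bgcn* (14.2 and 20.7 CPM, against 113 and 106 CPM) and *piwi* (271 and 280 CPM, against 458 and 480 CPM). Whether the 2 libraries of a group stem from different flies is not stated, so each p-value rests on the spread of these libraries alone, and that spread may be technical.

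Of the 10 methyltransferase transcripts, 6 were called higher under the *Nipped-A* RNAi label and none lower: *G9a*, *ash1*, *trx*, *Set2*, *Set1* and *PR-Set7*, by 1.86-fold to 3.27-fold (quasi-likelihood test of edgeR, Benjamini-Hochberg adjustment across the whole table, threshold 0.05). Of all genes tested, 11.3% rose and 8.31% fell, 19.6% together, or 1153 and 851 genes. Upper-quartile scaling moved the median log2 fold change of all genes to −0.21 and gave 853 higher and 1556 lower genes, with the same number of calls, 6, among the 10. The remaining 4, *trr*, *Su(var)3-9*, *E(z)* and *egg*, did not pass the test. The median log2 fold change of the 10 genes was 0.99, beside −0.00 for all genes tested. In 7 of the 10 both libraries labelled *Nipped-A* RNAi lay above both labelled *bam* RNAi, which was so for 33.6% of all genes tested, and in none did both lie below, beside 35.3%. When 1 of the libraries labelled *bam* RNAi was left out, edgeR called none of the 10 and no gene at all, although 2373 genes without library 1 and 1837 without library 2 had an unadjusted p below 0.05. DESeq2 called 6 of the 10 without *bam* RNAi library 1 and 5 without library 2, where it called 10.6% and 8.03% of all genes higher. Without *Nipped-A* RNAi library 1 or 2, edgeR called 7 and 8 of the 10, beside 19.7% and 23.1% of all genes called higher, and DESeq2 called 7 each time, beside 17.7% and 20.9%. With all 4 libraries DESeq2 called 7 of the 10, *trr* added, beside 20.6% of all genes.

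**Figure D1:**
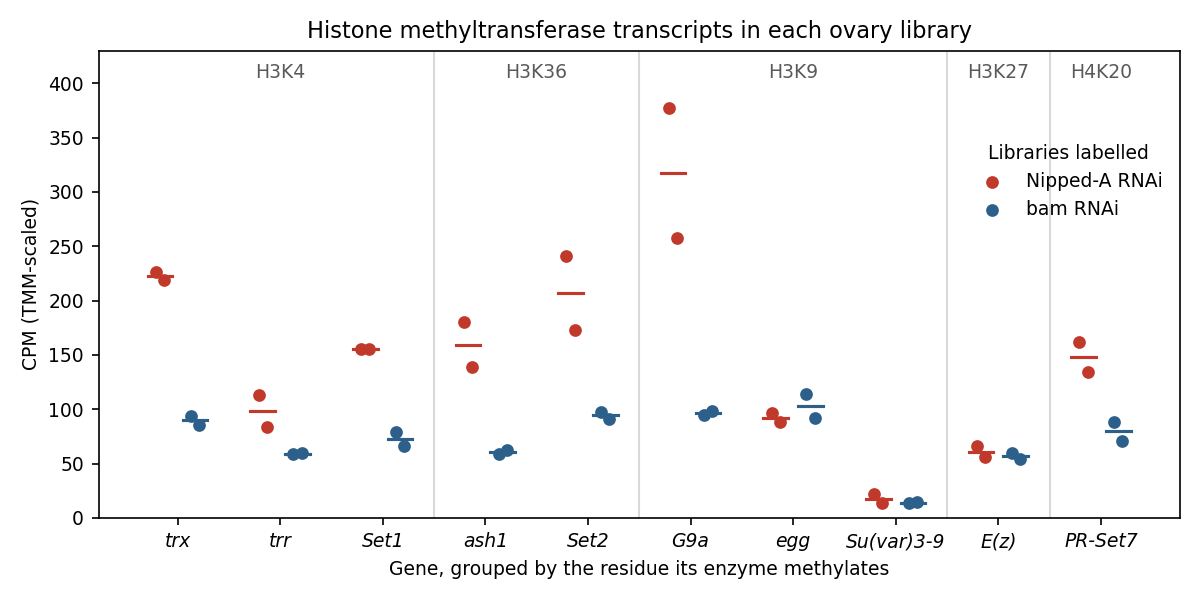
CPM of each gene (vertical axis) in the 2 libraries labelled *Nipped-A* RNAi (red, left of each pair) and the 2 labelled *bam* RNAi (blue, right); points are single libraries and short bars are group means. The red points lie above the blue ones for 7 genes, and the groups overlap for *egg*, *Su(var)3-9* and *E(z)*.

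The H3K4 methyltransferases comprise *trx*, *trr* and *Set1*, each the catalytic subunit of its own COMPASS-type complex. *trx* (FBgn0003862, dm6 chromosome 3R, 14263358 to 14286903, minus strand) is the founding Trithorax gene, which keeps homeotic genes active, and is the longest of the 10, with 14052 exonic bases. It had 226 and 219 CPM under the *Nipped-A* RNAi label, against 93.8 and 85.7 CPM under the *bam* RNAi label. The groups were well apart and each was tight, at 222 ± 5.23 CPM under the *Nipped-A* RNAi label and 89.7 ± 5.74 CPM under the *bam* RNAi label (SD, n = 2 each). The log2 fold change of *trx* was 1.31 ± 0.13 (SE; edgeR adjusted p = 0.00996), the smallest adjusted p of the 10. *Set1* (FBgn0040022, chromosome 3L, 25107594 to 25115180, plus strand; 5555 exonic bases) encodes the enzyme responsible for most H3K4 trimethylation in flies. Its level was 155 CPM in each library labelled *Nipped-A* RNAi, against 78.9 and 66.3 CPM under the *bam* RNAi label, a rise of 1.09 ± 0.15 on the log2 scale (edgeR adjusted p = 0.0151). *trr* (FBgn0023518, chromosome X, 1881313 to 1889950, minus strand; 8314 exonic bases), which encodes the enzyme of H3K4 monomethylation at enhancers, had 113 and 83.8 CPM under the *Nipped-A* RNAi label, against 58.5 and 59.7 CPM under the *bam* RNAi label. The groups did not overlap, but the test was not passed (0.74 ± 0.19, edgeR adjusted p = 0.0525). The libraries labelled *Nipped-A* RNAi differed by 0.43 on the log2 scale, less than for *Set2* (0.48) and *G9a* (0.55), which passed. The 95% interval of the *trr* fold ran from 1.19 to 2.33.

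The H3K36 enzymes among the 10 are *Set2* and *ash1*. *Set2* methylates the bodies of transcribed genes along with RNA polymerase II, and *ash1* is a Trithorax group protein that counteracts Polycomb repression. *ash1* (FBgn0005386, chromosome 3L, 19590773 to 19598755, minus strand; 7615 exonic bases) had 180 and 139 CPM under the *Nipped-A* RNAi label, against 58.5 and 62.2 CPM under the *bam* RNAi label. It was 2.65-fold higher (1.40 ± 0.17 on the log2 scale; edgeR adjusted p = 0.0136). *Set2* (FBgn0030486, chromosome X, 13413242 to 13421024, plus strand; 7583 exonic bases) had 241 and 173 CPM under the *Nipped-A* RNAi label, against 97.6 and 91.0 CPM under the *bam* RNAi label. Its rise was 2.20-fold (1.14 ± 0.19; edgeR adjusted p = 0.0218). In neither gene did the groups overlap, and in both the first library labelled *Nipped-A* RNAi was the highest of the 4. The exons of *ash1*, *Set2* and *G9a* share no base with another annotated gene.

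Of the 3 H3K9 enzymes, *G9a* passed the test and *egg* and *Su(var)3-9* did not. *G9a* (FBgn0040372, chromosome X, 245978 to 254650, plus strand; 7235 exonic bases), which encodes an enzyme of H3K9 mono- and dimethylation that flies can live without, had 377 and 258 CPM under the *Nipped-A* RNAi label, against 95.1 and 98.8 CPM under the *bam* RNAi label. This was the largest change of the 10, 3.27-fold (1.71 ± 0.21 on the log2 scale; edgeR adjusted p = 0.0136; 95% interval of the fold 2.26 to 4.74). *egg* (FBgn0086908, chromosome 2R, 24775534 to 24779901, minus strand; 3937 exonic bases), the fly SETDB1 and an essential gene of the ovary, had 96.2 and 88.0 CPM under the *Nipped-A* RNAi label, against 114 and 92.0 CPM under the *bam* RNAi label. These ranges overlapped, and *egg* did not pass the test (−0.16 ± 0.17; edgeR adjusted p = 0.502). Its 95% interval, 0.668-fold to 1.19-fold, lay below the whole interval of *G9a*. *Su(var)3-9* (FBgn0263755, chromosome 3R, 15259864 to 15263458, minus strand; 2386 exonic bases), the H3K9 enzyme of pericentric heterochromatin, was the scarcest of the 10. It had 21.5 and 13.8 CPM under the *Nipped-A* RNAi label, against 13.8 and 14.4 CPM under the *bam* RNAi label, and the first library alone stood higher (0.32 ± 0.30; edgeR adjusted p = 0.459; 95% interval −0.42 to 1.07). Without *Nipped-A* RNAi library 2 edgeR called *Su(var)3-9* higher (0.67, adjusted p = 0.0328), and without library 1 its value was −0.04 (adjusted p = 0.927).

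Because counts of both genes of a pair come from the same library, ratios between genes do not depend on library scaling. The length trend of the fold changes, described below, was not removed from these ratios. On the log2 scale it was 0.36 at the length of *G9a*, 0.19 at that of *egg* and 0.00 at that of *Su(var)3-9*. For *PR-Set7* and *E(z)* it was 0.21 and 0.05. *G9a* per kilobase of exon was 2.13 and 1.59 times *egg* under the *Nipped-A* RNAi label, against 0.452 and 0.584 times under the *bam* RNAi label, a 3.58-fold shift. The ratio of *G9a* to *Su(var)3-9* was 5.79 and 6.15 under the *Nipped-A* RNAi label, against 2.27 and 2.26 under the *bam* RNAi label. *G9a* RNA thus exceeded *egg* RNA in both libraries labelled *Nipped-A* RNAi and was below it in both labelled *bam* RNAi. Among the H3K4 enzymes, *trx* was 1.18 and 1.54 times *trr* under the *Nipped-A* RNAi label, against 0.949 and 0.849 times under the *bam* RNAi label. The ratio of *Set1* to *trx* was 1.73 and 1.79 under the *Nipped-A* RNAi label, against 2.13 and 1.96 under the *bam* RNAi label. *Set1* exceeded *trx* per kilobase in all 4 libraries. *Set2* was 1.35 and 1.25 times *ash1* under the *Nipped-A* RNAi label, against 1.67 and 1.47 times under the *bam* RNAi label. Of the 8 ratios computed, all had an exact two-sided permutation p = 0.333, the smallest that 2 libraries against 2 can give, before and after adjustment, so none of the shifts could pass a threshold of 0.05.

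*E(z)*, the single H3K27 methyltransferase of the fly and the catalytic subunit of Polycomb repressive complex PRC2, did not pass the test. *E(z)* (FBgn0000629, chromosome 3L, 10634575 to 10638130, minus strand; 2665 exonic bases) had 65.9 and 55.8 CPM under the *Nipped-A* RNAi label, against 59.3 and 54.0 CPM under the *bam* RNAi label. The groups overlapped (0.10 ± 0.17 on the log2 scale; edgeR adjusted p = 0.695; −0.11 with upper-quartile scaling), with a 95% interval of 0.792-fold to 1.46-fold. *PR-Set7* (FBgn0011474, chromosome 3R, 14316038 to 14320494, plus strand; 4183 exonic bases), the H4K20 monomethyltransferase, had 162 and 134 CPM under the *Nipped-A* RNAi label, against 88.5 and 70.7 CPM under the *bam* RNAi label. It rose 1.86-fold (0.89 ± 0.18; edgeR adjusted p = 0.0304). The ratio of *PR-Set7* to *E(z)* per kilobase was 1.56 and 1.53 under the *Nipped-A* RNAi label, against 0.951 and 0.834 under the *bam* RNAi label.

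Levels of different genes were compared as CPM per kilobase of exon. Summed over the 10 genes, this level was 262 and 211 under the *Nipped-A* RNAi label, against 140 and 126 under the *bam* RNAi label. The order of the genes differed between groups. *G9a* came first under the *Nipped-A* RNAi label, at 43.8 ± 11.6 CPM per kilobase (SD, n = 2), and at rank 4 under the *bam* RNAi label, at 13.4 ± 0.353. *egg* came at rank 5 under the *Nipped-A* RNAi label, at 23.4 ± 1.46 CPM per kilobase, and first under the *bam* RNAi label, at 26.2 ± 4.04. *G9a* made up 19.9% and 16.8% of the summed level under the *Nipped-A* RNAi label, against 9.40% and 10.9% under the *bam* RNAi label. For *egg* the shares were 9.33% and 10.6% under the *Nipped-A* RNAi label, against 20.8% and 18.6% under the *bam* RNAi label. *E(z)* held 9.44% and 9.89% under the *Nipped-A* RNAi label, against 15.9% and 16.1% under the *bam* RNAi label. The shares of *egg* and *E(z)* were smaller, and that of *G9a* larger, in both libraries labelled *Nipped-A* RNAi. *Su(var)3-9* came last in both groups. Under the *Nipped-A* RNAi label the ranges of *G9a* and *PR-Set7* overlapped, as did those of each neighbouring pair from *Set1* through *Set2*, *egg* and *E(z)* to *ash1*. Under the *bam* RNAi label, *E(z)* and *PR-Set7* overlapped, as did *G9a* with *Set1* and *Set1* with *Set2*; the other neighbours in the order were apart in both libraries.

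**Figure D2:**
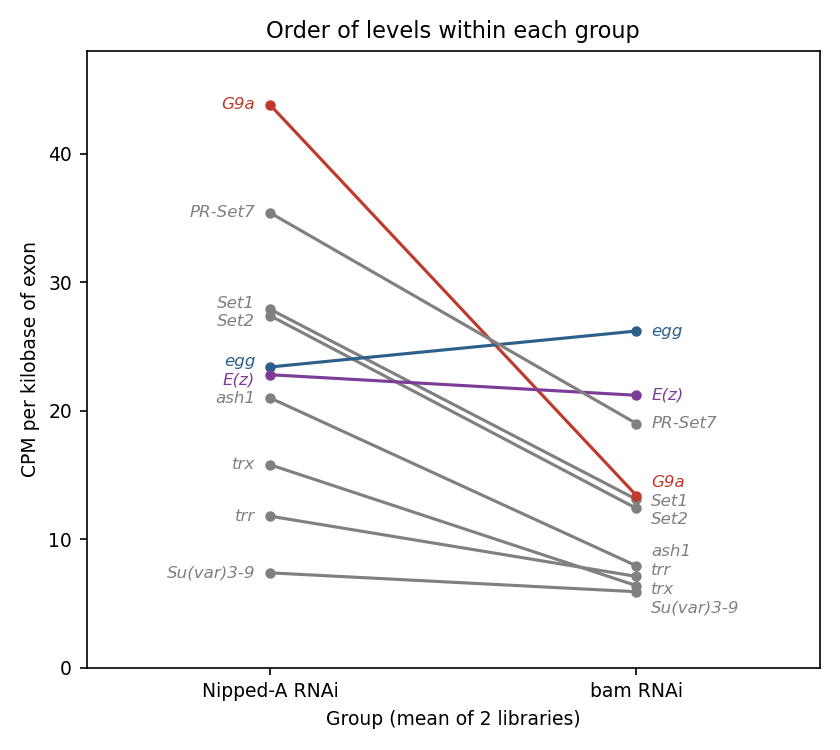
Mean level per gene in CPM per kilobase of exon (vertical axis) in the libraries with the *Nipped-A* RNAi label (left) and the *bam* RNAi label (right), n = 2 each; lines join the same gene. *G9a* leads on the left at 43.8, while *egg* and *E(z)* lead on the right at 26.2 and 21.2.

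Gene length moved with the fold changes. Over the 10032 tested genes with an exonic length, the median log2 fold change was −0.38 in the shortest of 5 equal length classes, up to 1084 bases, and 0.36 in the longest class, from 3950 bases. From the shortest class to the longest, 6.68%, 5.28%, 8.13%, 11.5% and 24.7% of genes rose, and among the 617 genes of at least 7000 bases 31.0% rose. The longest class holds 7 of the 10 methyltransferase genes (*trx*, *trr*, *ash1*, *Set1*, *Set2*, *G9a* and *PR-Set7*), and these 7 are the ones whose libraries were separated. *egg* and *E(z)* lie in the next class and *Su(var)3-9* in the middle one. Across the 10 genes, Spearman's rho of exonic length and log2 fold change was 0.66, given as a description since the genes share the same 4 libraries. With the length trend described next removed, it was 0.64.

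**Figure D3:**
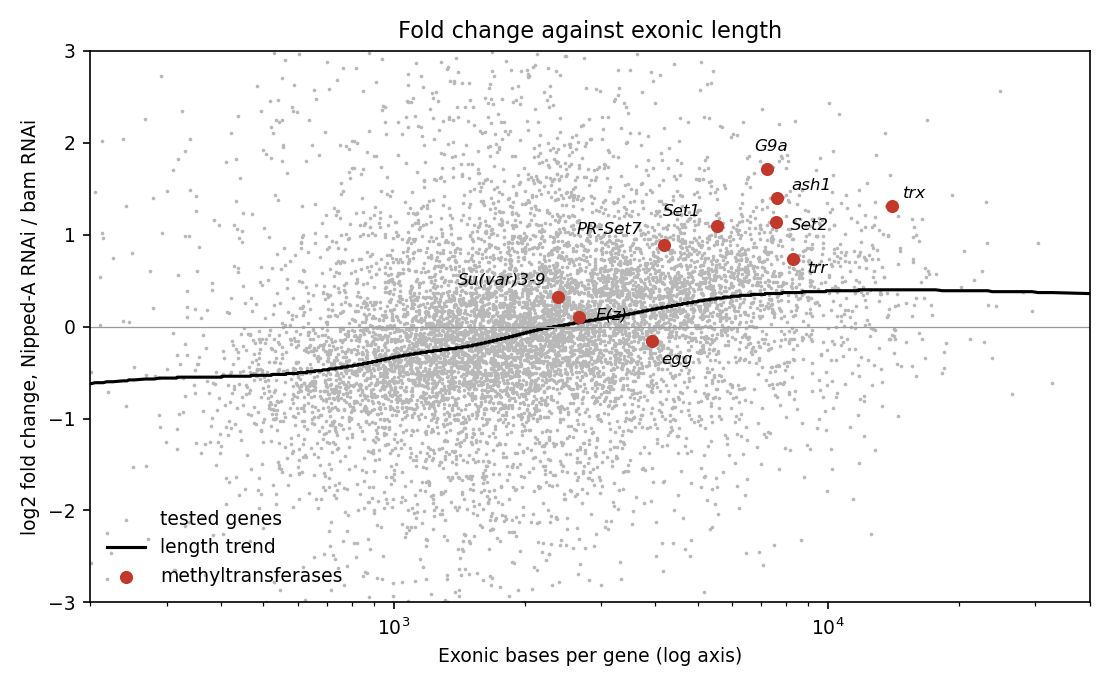
Log2 fold change of *Nipped-A* RNAi over *bam* RNAi libraries (vertical axis) against exonic length in bases (log axis) for tested genes (grey), the 10 methyltransferases (red) and the fitted length trend (black); 667 genes fall outside the axes. The trend climbs from below 0 for short genes to about 0.40 at the length of *trx*, and the 6 called genes and *trr* lie above it.

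The trend was then taken out by a smooth curve fitted to each library and entered as offsets. At the exonic length of *trx* the trend was 0.40 on the log2 scale, at those of *G9a*, *ash1* and *Set2* 0.36, at that of *Set1* 0.31 and at that of *PR-Set7* 0.21. With it removed, 5 of the 10 genes rose, and none fell, beside 7.77% and 6.23% of all genes tested; of the genes of at least 7000 bases 10.2% rose. *G9a* was then 2.56-fold higher (1.36 ± 0.23; edgeR adjusted p = 0.0287) and *ash1* 2.06-fold (adjusted p = 0.0349). *trx* was 1.89-fold higher (adjusted p = 0.0246), *Set1* 1.73-fold (adjusted p = 0.0245) and *PR-Set7* 1.61-fold (adjusted p = 0.0485). *Set2* lost its call, at 0.78 ± 0.20 on the log2 scale (edgeR adjusted p = 0.0647), and *trr* stood at 0.37 ± 0.21 (adjusted p = 0.276). *egg* stood at −0.35 ± 0.14 (adjusted p = 0.153) and *E(z)* at 0.06 ± 0.15 (adjusted p = 0.821). The median of the 10 was 0.74 after removal, beside 0.05 for all genes tested. The length dependence was also present between libraries of the same label: the slope of the log2 ratio per 10-fold of length was 0.18 for library 1 over 2 with the *Nipped-A* RNAi label and 0.20 for library 1 over 2 with the *bam* RNAi label, against 0.16 to 0.54 between groups.

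**Figure D4:**
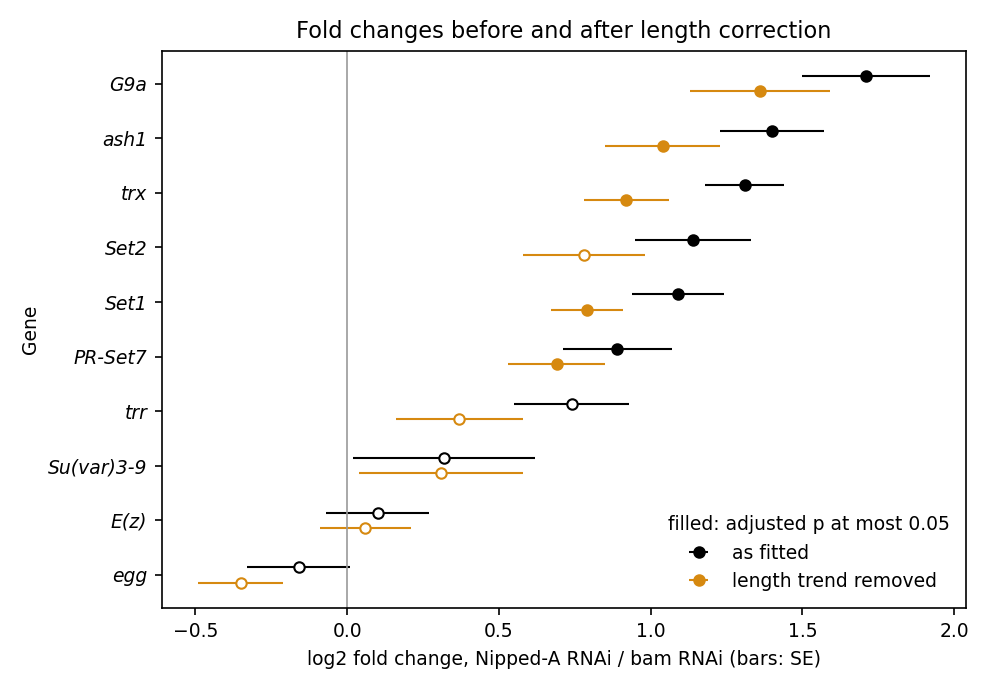
Log2 fold change of *Nipped-A* RNAi over *bam* RNAi libraries with its SE (horizontal axis) for each gene, as fitted (black, upper) and with the length trend removed (orange, lower); filled points passed an adjusted p of 0.05. After removal 5 genes stay filled, *Set2* turns open at 0.78, and *egg* lies below 0 in both fits.

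Other features of the gene models bear on single counts, since the strand setting of the counting is not given in the sources used here. *Su(var)3-9* shares 352 bases, 14.8% of its exons, with *eIF2gamma* on the same strand, a translation initiation factor gene that lies in the same locus. *eIF2gamma* had 270 and 214 CPM under the *Nipped-A* RNAi label, against 275 and 262 CPM under the *bam* RNAi label, and did not pass the test (edgeR adjusted p = 0.525). The level of *Su(var)3-9* is uncertain for this reason. *egg* shares 629 bases, 16% of its exons, with an antisense RNA gene that had at most 1 count in any library. How reads in the shared bases were counted is not given, so the level of *egg* is uncertain too. *PR-Set7* shares 304 bases with the opposite-strand gene *Afti*, which also rose (101 and 83.0 CPM under the *Nipped-A* RNAi label, against 51.6 and 41.5 CPM under the *bam* RNAi label; edgeR adjusted p = 0.0294) but was not called with the length trend removed (0.68, adjusted p = 0.0599). That overlap is 7.27% of the exonic bases of *PR-Set7*. *trx* shares 570 bases, 4.06% of its exons, with an antisense RNA gene that is absent from the genes counted. *E(z)* shares 38 bases with *CG34001* (edgeR adjusted p = 0.597). *Set1* shares 257 bases with *MED21*, and *trr* 120 bases with *Coa8*, neither of which passed the test (edgeR adjusted p = 0.134 and 0.0966), although *MED21* was called higher with the length trend removed (0.91, adjusted p = 0.0485).

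Of 3 further histone lysine methyltransferases, *gpp*, *Hmt4-20* and *NSD*, 2 rose (1 with upper-quartile scaling, all 3 with DESeq2 or without either *Nipped-A* RNAi library); *NSD* stood at 0.87 ± 0.27 (edgeR adjusted p = 0.0751). *gpp*, the H3K79 methyltransferase known as Dot1 in yeast, had 283 and 247 CPM under the *Nipped-A* RNAi label, against 161 and 148 CPM under the *bam* RNAi label (0.78 ± 0.14; edgeR adjusted p = 0.0235). *Hmt4-20*, which adds further methyl groups to the H4K20 mark laid by *PR-Set7*, had 316 and 267 CPM under the *Nipped-A* RNAi label, against 184 and 196 CPM under the *bam* RNAi label (0.62 ± 0.14; edgeR adjusted p = 0.0398). Neither was called with the length trend removed, at 0.39 and 0.28 on the log2 scale.

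Of 11 partner subunits of the COMPASS complexes tested, 2 rose and none fell (1 and 0 with upper-quartile scaling, 5 and 0 with DESeq2), with a median log2 fold change of 0.18. In edgeR the median was −0.03 without *Nipped-A* RNAi library 1 and 0.43 without library 2. *Ptip*, a subunit of the complex of *trr*, rose 2.60-fold, with 163 and 121 CPM under the *Nipped-A* RNAi label, against 54.9 and 54.0 CPM under the *bam* RNAi label (edgeR adjusted p = 0.0151). *Mnn1*, the fly menin and a partner of *trx*, rose 1.68-fold, with 89.4 and 93.2 CPM under the *Nipped-A* RNAi label, against 57.1 and 51.5 CPM under the *bam* RNAi label (edgeR adjusted p = 0.0300). With the length trend removed *Ptip* kept its call (1.02) and *Mnn1* did not (0.46). The core subunits shared by all 3 complexes lay near or below 0 and did not pass the test: *wds* at −0.05, *ash2* at −0.13, *Rbbp5* at −0.42 and *Dpy-30L1* at −0.65. *Dpy-30L1* has 655 exonic bases and stood at −0.15 with the length trend removed.

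Among 18 Polycomb proteins tested, 5 rose and none fell (4 and 1 with upper-quartile scaling, 8 and 0 with DESeq2), with a median of 0.49. In edgeR, leaving out *Nipped-A* RNAi library 1 gave a median of 0.36, and leaving out library 2 gave 0.73. *Jarid2*, an accessory subunit of PRC2, rose 2.52-fold, with 410 and 332 CPM under the *Nipped-A* RNAi label, against 150 and 144 CPM under the *bam* RNAi label (edgeR adjusted p = 0.0127). *Pc*, the reader of the H3K27 mark, rose 2.08-fold, *Scm* 2.02-fold, and the DNA-binding proteins *pho* and *phol* 2.01-fold and 1.77-fold (edgeR adjusted p between 0.0156 and 0.0479). The core partners of *E(z)* did not pass the test, with *esc* at 0.20 ± 0.27, *Su(z)12* at 0.52 ± 0.19 and *Caf1-55* at −0.25 ± 0.23. With the length trend removed *Jarid2*, *Pc*, *Scm* and *pho* kept their calls, *phol* lost it (0.70), and *ph-p*, a PRC1 subunit, was called lower (−0.86; adjusted p = 0.0427).

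Of 12 heterochromatin proteins tested, 2 rose and none fell (2 and 3 with upper-quartile scaling, 5 and 1 with DESeq2), with a median of 0.29. In edgeR, the median was 0.10 without *Nipped-A* RNAi library 1 and 0.52 without library 2. *ADD1* rose 2.15-fold (152 and 125 CPM under the *Nipped-A* RNAi label, against 64.2 and 64.8 CPM under the *bam* RNAi label; edgeR adjusted p = 0.0159) and kept its call with the length trend removed. *Su(var)2-HP2*, which binds HP1, rose 1.74-fold (edgeR adjusted p = 0.0197) and did not keep it. *HP1a*, the reader of H3K9 methylation, had 158 and 155 CPM under the *Nipped-A* RNAi label, against 207 and 236 CPM under the *bam* RNAi label. It did not pass the test (−0.50 ± 0.13; edgeR adjusted p = 0.0541), nor did *wde*, the cofactor of *egg* (0.48 ± 0.15; adjusted p = 0.0769).

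None of the 9 lysine demethylase genes and cofactors was called by edgeR with the settings used throughout, though 4 had an unadjusted p below 0.05, and their median was 0.33. The count was 1 with limma-voom, 2 with robust moderation or no filter, 4 with DESeq2, and 3 and 8 with edgeR without *Nipped-A* RNAi library 1 and 2. The gene with the highest CPM, not corrected for length, was *lid*, the H3K4 demethylase, with 428 and 309 CPM under the *Nipped-A* RNAi label, against 238 and 176 CPM under the *bam* RNAi label (0.83 ± 0.23; edgeR adjusted p = 0.0602). None of 7 factors of transcription-coupled methylation was called with the same settings either, though 3 had an unadjusted p below 0.05, and their median was −0.13. In edgeR, RLE factors, library size alone, robust moderation, no filter and a 1 CPM filter each gave 1 higher call and upper-quartile scaling 1 lower call, and DESeq2 gave 2 higher. The edgeR median of these factors was −0.19 without *Nipped-A* RNAi library 1 and −0.00 without library 2. *Spt6*, the elongation factor that *Set2* depends on in yeast, had 268 and 223 CPM under the *Nipped-A* RNAi label, against 272 and 237 CPM under the *bam* RNAi label. For comparison with these list counts, 11.3% of all genes tested rose and 8.31% fell in edgeR. With DESeq2 20.6% rose, and 1415 of 10245 genes fell. In the longest length class, from 3950 bases, 24.7% rose in edgeR. The 6 lists hold 59 different genes, with a median of 4069 exonic bases. Of these genes 11 rose and none fell (8 and 5 with upper-quartile scaling, 26 and 1 with DESeq2). Their median log2 fold change was 0.34. In edgeR this median was 0.14 without *Nipped-A* RNAi library 1 and 0.57 without library 2. The medians of all genes tested were −0.03 and −0.01 in the same fits.

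**Figure D5:**
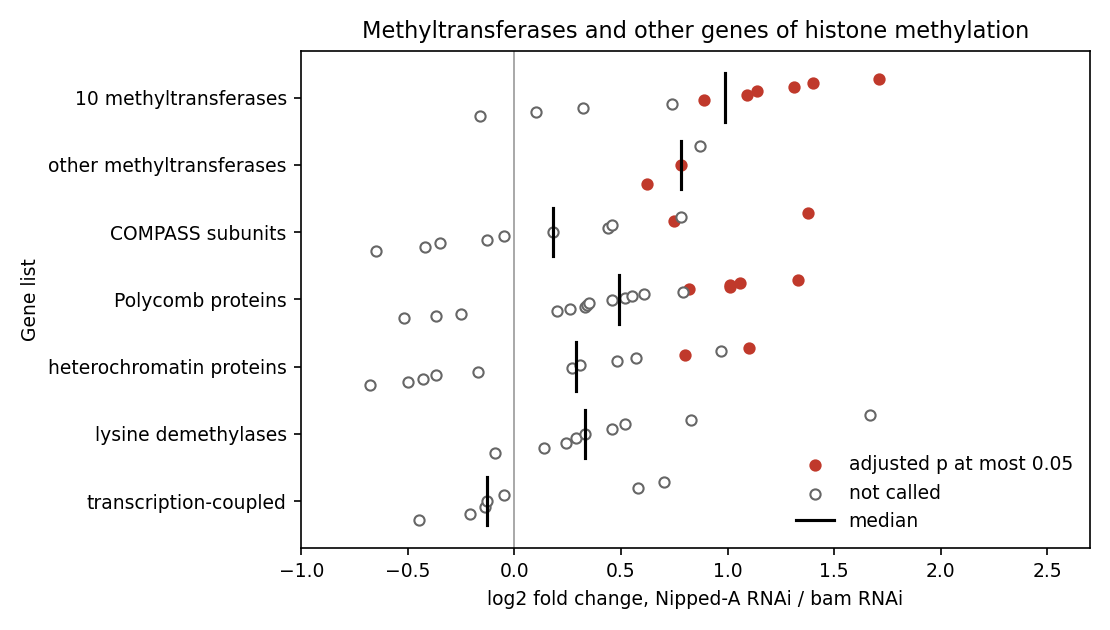
Log2 fold change of *Nipped-A* RNAi over *bam* RNAi libraries (horizontal axis) for the 10 methyltransferases and 6 lists of related genes; each point is 1 gene, red where the adjusted p was at most 0.05, and black bars are medians. The medians run from 0.99 for the 10 methyltransferases to −0.13 for the transcription-coupled factors.

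Markers of other cell types and stages differed between the same libraries. Of 10 maternal transcripts 9 rose under the *Nipped-A* RNAi label, with summed levels of 3261 and 1805 CPM there, against 536 and 507 CPM under the *bam* RNAi label. All 9 muscle sheath markers fell, with sums of 7523 and 8917 CPM under the *Nipped-A* RNAi label, against 27607 and 27822 CPM under the *bam* RNAi label. Of 6 genes listed as hemocyte markers 4 fell and 1 rose. Their sums were 3240 and 3345 CPM under the *Nipped-A* RNAi label, against 8332 and 7341 CPM under the *bam* RNAi label. *Col4a1*, *vkg* and *Pxn* had the highest levels in these sums and fell, as did *NimC1*. *Hml* was not called as fitted (−0.54, edgeR adjusted p = 0.0718), and *srp* rose (0.70, edgeR adjusted p = 0.0331). Whether the listed genes mark hemocytes alone in the ovary was not tested. All 8 gut markers rose, with sums of 884 and 2882 CPM under the *Nipped-A* RNAi label, against 4.04 and 4.48 CPM under the *bam* RNAi label, where *LysE* was at 0. Of 9 follicle cell markers 3 rose and 2 fell, and of 6 fat body markers 2 rose and 4 fell; the 8 germ cell markers gave 4 rises and 2 falls. With the length trend removed these counts were 3 and 3 for germ cell, 0 and 5 for hemocyte, 1 and 3 for fat body, 0 and 8 for muscle sheath and 8 and 0 for maternal genes, and the same as before for follicle cell and gut markers. In whole ovaries, fewer cells of a type and less RNA per cell cannot be told apart, and the part of these differences in the methyltransferase results was not tested. Among the 10 methyltransferases, 9 were at least as high in *Nipped-A* RNAi library 1 as in library 2, by up to 0.63 on the log2 scale (*Su(var)3-9*), as were the summed maternal transcripts; for *Set1* the difference was −0.00.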

How the data were processed

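For each of the 4 libraries there was 1 deposited table of raw read counts by gene; HISAT2 2.1.0, featureCounts 1.6.0.4, edgeR 3.16.5 and the build dm6 are named in the submitters' processing notes. The libraries were directional, per the labels' protocols; annotation, strand setting and treatment of multi-mapping reads: not given in the sources used here. Symbols, coordinates and exonic lengths (union of exons) came from Ensembl gene models on dm6 coordinates, for 16647 of 17023 genes. Genes were kept with filterByExpr, scaled with TMM and tested with glmQLFit and glmQLFTest in edgeR 4.0.16 (R 4.3.3), two-sided, with Benjamini-Hochberg adjustment over 10245 genes and a threshold of 0.05. SE was taken as the size of the log2 fold change over the root of its F statistic, and 95% intervals use the t quantile of the fit. The length trend was a lowess curve (span 0.3) of log2 CPM, centred per gene, on log length. DESeq2 1.42.0 and limma-voom (limma 3.58.1) were alternatives. The main edgeR fit and the removal of the length trend were first tested on simulated data in which 200 genes were changed. The alternatives, DESeq2 and limma-voom among them, were not tested in this way.

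The 10 genes and the lists were chosen with earlier results of these data known, so no list was tested as a set. Named genes are the 10, both targets, up to 4 called genes per chromatin list with the smallest adjusted p or else the one of highest CPM, which is not corrected for length (per kilobase of exon *NO66* exceeded *lid* and *Ctr9* exceeded *Spt6*), and genes sharing exons with the 10; *phol*, *ph-p*, *NSD*, the core COMPASS and PRC2 subunits, *HP1a* and *wde* were named after their values were seen. The single markers *bgcn*, *piwi*, *Col4a1*, *vkg*, *Pxn*, *NimC1*, *Hml* and *srp* were also named after their values were seen. *Pa1*, *calypso*, *sov*, *vas*, *br* and *wupA* were not matched. The 10 genes had 295 to 18507 counts per library. The common biological coefficient of variation, the spread between libraries of a group beyond counting noise, was 0.332.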

Additional observations from a re-analysis of the deposited data

How the results depend on the processing

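Of 190 log2 fold changes of the 10 genes recomputed under alternatives, 160 kept their direction and side of the threshold. *trr* passed it with RLE factors (0.78), library size alone (0.79), DESeq2 (0.78), robust moderation (0.74), no filter (0.75) and a 1 CPM filter (0.72). *Set2* missed it with the length trend removed (0.78), and *E(z)* turned to −0.11 with upper-quartile factors. DESeq2 called 3521 genes, against 2004 by edgeR. Upper-quartile factors shifted the median of all genes to −0.21 and gave 853 higher and 1556 lower calls, against 1153 and 851. The 59 related genes gave 11 calls, 27 with DESeq2, 18 with robust moderation, 18 with no filter and 7 with the length trend removed.

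Leaving out 1 library gave 0 to 4215 calls by edgeR over all genes, 0 to 8 over the 10 and 0 to 39 over the related genes, with the lone library assumed to vary like the other group; the zeros are the fits without either *bam* RNAi library. Log2 fold changes ranged from 1.25 to 1.40 for *trx*, 0.50 to 1.00 for *trr*, 1.20 to 1.64 for *ash1*, 0.98 to 1.24 for *Set1*, 0.87 to 1.42 for *Set2*, 1.40 to 2.02 for *G9a* and 0.74 to 1.09 for *PR-Set7*. They crossed 0 for *egg* (−0.31 to 0.02), *Su(var)3-9* (−0.04 to 0.67) and *E(z)* (−0.03 to 0.28). In DESeq2 fits, chosen after seeing the data, the 4 omissions gave 1202 to 3748 calls: 3189 and 3748 over all genes, and 24 and 36 over the related ones, without *Nipped-A* RNAi library 1 and 2, and 1202 and 5 without *bam* RNAi library 2. There *trr* passed the threshold at 0.54 and 1.01 without *Nipped-A* RNAi library 1 and 2, *PR-Set7* missed it at 0.79 without *bam* RNAi library 2, and *egg* stood at 0.05 without *bam* RNAi library 1. The causes were not tested.

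With the replicate number as a block 6 of the 10 genes and 1813 of all genes were called; with the length trend removed as well the counts were 6 and 1620, and *Set2* was called (0.76, edgeR adjusted p = 0.0440). Among the related lists the block alone gave 1 of 3 further methyltransferases, 2 demethylase genes and 1 transcription-coupled factor. Deviations of same-numbered libraries correlated at −0.0756 over all genes, while the length slope of library 1 over 2 was 0.18 for *Nipped-A* RNAi and 0.20 for *bam* RNAi; the labels tie the numbers to no shared batch, and they were not used to pair samples.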
